A study of Homo sapiens with 6 samples.

Results

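The genes described here are VIM, which encodes vimentin, PLEC (plectin), NES (nestin), LMNA, LMNB1 and LMNB2 (the lamins), and LBR, EMD and TMPO, which encode proteins of the inner nuclear membrane. They were chosen by name, as 9 of the 26485 genes in the count table. THP1 is an established human acute monocytic leukemia cell line, a single line from the ATCC grown in RPMI medium with fetal bovine serum. Its cells were exposed for 6 h to withaferin A (WFA), a steroidal lactone of the plant Withania somnifera, or to the DMSO vehicle alone, in 3 independent experiments that each gave 1 DMSO and 1 WFA library. The sample labels state the WFA dose as 1 mM and the methods of the study as 1 μM. The comparison asked how transcript levels differed between WFA and DMSO after this short exposure. In bulk RNA of this kind, fewer cells with a transcript and less of it per cell cannot be told apart.

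Vimentin is the main intermediate filament protein of monocytes and of mesenchymal cells, and its single cysteine is a known site of covalent attack by WFA. Nestin is a larger filament protein that assembles together with vimentin, and plectin is a cytolinker that ties the filaments to actin, to microtubules and to the nucleus. The lamins form a meshwork under the inner nuclear membrane. LMNA gives lamins A and C, LMNB1 and LMNB2 give the B-type lamins, and B-type lamins stay attached to the membrane through a farnesyl group. LBR, a receptor for lamin B that also has sterol reductase activity, holds heterochromatin at the nuclear edge. Emerin (EMD) and the LAP2 proteins encoded by TMPO carry a LEM domain, which binds the DNA-bridging protein BAF.

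The 6 libraries held between 11006035 and 13872810 counted reads. Levels are given as CPM, read counts scaled to a common library size with edgeR's TMM factors. A gene was called when its p-value in edgeR's quasi-likelihood test, adjusted by the Benjamini-Hochberg method over the 12854 genes with enough reads, lay under 0.05. All 8 monocytic markers examined were counted, with summed levels of 2390 to 2910 CPM with DMSO and 2160 to 2930 CPM with WFA. Most of this sum was LYZ, with a mean of 1823 CPM with DMSO and 1764 CPM with WFA. HBB, a defining marker of erythroid cells, was at 0 counts in all libraries. The summed markers of T cells, epithelial cells, endothelial cells and B cells reached at most 0.5, 0.281, 1.4 and 1.85 CPM in any library, and those of fibroblasts 0.833 CPM with DMSO and 8.62 to 12.6 CPM with WFA, nearly all of it COL1A1. Group means are given ± SD over 3 libraries, and log2 fold changes ± SE. Same-numbered libraries deviated together, and values from a fit with the replicate number as a block are given where they change a call.

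Of the 9 genes, 8 were tested, and 2 rose (NES and LMNA) and 4 fell (LMNB1, PLEC, TMPO and LMNB2) with WFA. Over all genes tested, 25.8% were called higher and 24.7% lower, 50.5% in all, so that 6 of 8 stands against a background in which about every other gene was called. NES passed the filter on low counts only through its WFA libraries and had to differ for that reason, so its own call and its place in these counts are a description only. Nothing about the family is read from the counts. The WFA and DMSO values did not overlap for the same 6 genes, against 58.1% of all genes tested (29.6% with WFA above and 28.5% with WFA below). VIM and LBR were not called. EMD was listed at 0 reads in each of the 6 libraries, so nothing can be said about its level. The median log2 fold change of the 8 genes was -0.19, beside 0.02 over all genes tested.

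**Figure D1:**
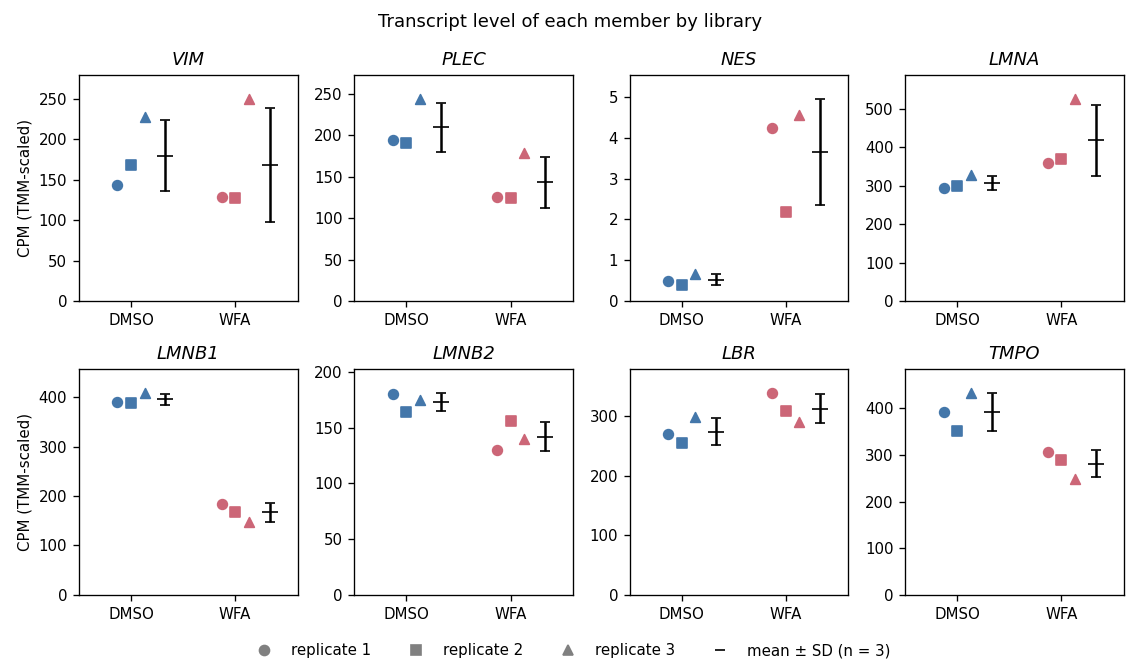
Level of the 8 tested genes in each library, in CPM on linear axes that start at 0, with symbols for the replicate number and black bars for the mean and SD of 3 libraries. LMNB1 fell from about 396 to 167 CPM without overlap, whereas the VIM values of both groups spread over the same range, with the replicate 3 library highest in each.

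The sequences before the transcription start are shown for 4 genes that took different directions, LMNB1 (the largest fall), NES and LMNA (both higher) and VIM (not called). Each is the run of 250 bases before a start annotated by RefSeq (GRCh38.p14), written 5′ to 3′ on the strand of the gene. Capitals mark matches on either strand to CCAAT, to the GC box GGGCGG, to TTTGAA or TTCGAA, to TTTCCCGC or TTTGGCGC, to GAANNTTC or TTCNNGAA, to TGACNNNGC and to the E-box CACGTG.
LMNB1: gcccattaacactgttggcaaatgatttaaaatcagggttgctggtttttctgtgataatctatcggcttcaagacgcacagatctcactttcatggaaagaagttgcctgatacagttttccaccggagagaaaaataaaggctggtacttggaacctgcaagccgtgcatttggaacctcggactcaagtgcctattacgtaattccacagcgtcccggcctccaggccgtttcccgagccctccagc
NES: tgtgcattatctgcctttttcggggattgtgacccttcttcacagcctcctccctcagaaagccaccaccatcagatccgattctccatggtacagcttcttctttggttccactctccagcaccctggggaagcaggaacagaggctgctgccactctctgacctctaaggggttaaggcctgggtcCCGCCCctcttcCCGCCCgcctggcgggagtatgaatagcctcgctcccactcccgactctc
LMNA: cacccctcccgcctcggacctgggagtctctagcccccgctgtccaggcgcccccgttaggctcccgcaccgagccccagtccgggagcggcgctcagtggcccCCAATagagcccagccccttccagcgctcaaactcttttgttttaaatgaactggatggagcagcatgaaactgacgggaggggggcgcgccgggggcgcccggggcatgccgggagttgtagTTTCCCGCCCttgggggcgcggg
VIM: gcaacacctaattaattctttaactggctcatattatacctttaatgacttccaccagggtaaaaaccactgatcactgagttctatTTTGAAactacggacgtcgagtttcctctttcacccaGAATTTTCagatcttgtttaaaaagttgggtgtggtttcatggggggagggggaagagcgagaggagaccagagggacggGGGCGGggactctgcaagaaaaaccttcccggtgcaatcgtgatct
These windows lie at chr5:126776373-126776622 on the plus strand, chr1:156677408-156677657 on the minus strand, chr1:156082323-156082572 on the plus strand and chr10:17227991-17228240 on the plus strand. LMNB1 held none of the motifs in this window. NES held the GC box at 62 and 50 bases before the start. LMNA held CCAAT at 146 bases, and a match to TTTCCCGC at 23 bases that overlaps a GC box at 19 bases. VIM held a GC box at 46 bases, TTTGAA at 163 bases and a match to GAANNTTC, the core of a heat shock element, at 126 bases. Among 35116 windows of the same length in the RefSeq table, CCAAT was found in 32.0%, the GC box in 42.6%, TTTGAA or TTCGAA in 14.3%, TTTCCCGC or TTTGGCGC in 1.93%, GAANNTTC or TTCNNGAA in 11.6%, TGACNNNGC in 10.9% and CACGTG in 6.34%. LMNA and LMNB1 have further annotated starts, 3 and 2 in all, and gene counts do not show which was used.

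The cytoplasmic filament genes did not move together. VIM (chromosome 10, 17228259 to 17237593, plus strand, GRCh38) had 143.0, 168.6 and 228.1 CPM in DMSO replicates 1, 2 and 3. With WFA it had 128.7, 127.2 and 249.9 CPM. The groups overlapped, and in both of them replicate 3 was the highest. The log2 fold change was -0.09 ± 0.22 (SE, edgeR adjusted p = 0.739), with a 95% interval from -0.55 to 0.37. Within the experiments WFA differed from DMSO by -0.15, -0.41 and 0.13 on the log2 scale for replicates 1, 2 and 3, so the direction was not shared. In fits without the block, leaving out a single library could change the call or the sign. Such a fit keeps the other library of that experiment in 1 group only. Its shift therefore includes the difference between experiments. Without WFA replicate 3 the log2 fold change of VIM was -0.49 and was called (edgeR adjusted p = 0.0169), and without both replicate 3 libraries it was -0.28 (edgeR adjusted p = 0.04345). It turned to 0.11 without DMSO replicate 3, 0.07 without WFA replicate 1 and 0.07 without WFA replicate 2. With the replicate block it stayed uncalled, at -0.14 (edgeR adjusted p = 0.127).

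VIM shares 641 exon bases with VIM-AS1, a transcript of the opposite strand, and the library kit named in the labels does not mark strand. It also shares 619 exon bases with AL133415.1, another gene of the opposite strand, whose reads were not examined. VIM-AS1 had 4.994, 7.976 and 6.832 CPM with DMSO and 3.512, 4.188 and 5.025 CPM with WFA, and fell with a log2 fold change of -0.64 ± 0.22 (SE, edgeR adjusted p = 0.0242). Its highest WFA value lay just above the lowest DMSO value. Reads of the shared bases cannot be assigned with certainty, but VIM-AS1 had at most 101 reads in a library and VIM at least 1576.

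PLEC, the cytolinker that binds vimentin, had 193.9, 191.3 and 243.9 CPM with DMSO and 126.0, 124.8 and 178.9 CPM with WFA. Each WFA library lay below each DMSO library, and replicate 3 was again the highest of its group. Its level fell by 31.7%, a log2 fold change of -0.55 ± 0.13 (SE, edgeR adjusted p = 0.00305), with within-experiment values of -0.62, -0.62 and -0.45. NES (chromosome 1, 156668763 to 156677397, minus strand) had the fewest reads of the 8 tested members. It was counted 7, 5 and 8 times with DMSO and 52, 27 and 49 times with WFA. These counts correspond to 0.492, 0.395 and 0.667 CPM and to 4.248, 2.175 and 4.56 CPM. The log2 fold change was 2.80 ± 0.37 (SE, edgeR adjusted p = 1.87e-05), a 6.95-fold difference from a few reads per library. Of all genes tested 8.11% were called higher by over 2-fold, a share against which NES is not read because of how it passed the filter. COL1A1, a collagen gene examined as a fibroblast marker, rose as well (log2 fold change 4.47, edgeR adjusted p = 7.18e-08), from 3, 4 and 10 reads with DMSO to 107, 106 and 135 reads with WFA, while COL1A2 stayed at 0 in all libraries and DCN at no more than 1 read per library. COL1A1 had too few reads in DMSO replicates 1 and 2 to reach the cutoff of the filter, so its call is also a description only.

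The lamin genes moved in opposite directions. LMNB1 (chromosome 5, 126776623 to 126837020, plus strand) had 390.4, 388.4 and 408.1 CPM with DMSO. With WFA it had 184.4, 168.4 and 147.5 CPM. The groups were far apart, and even the highest WFA library held less than the lowest DMSO library by a wide margin. Its level fell by 57.8%, with a log2 fold change of -1.25 ± 0.10 (SE, edgeR adjusted p = 7.24e-08). Within the experiments it was -1.08, -1.21 and -1.47. LMNB1 was the one member called with a fall of over 2-fold, a size that 5.2% of all genes tested reached in that direction.

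LMNB2 (chromosome 19, 2427638 to 2456996, minus strand), the other B-type lamin gene, had 180.1, 164.3 and 174.6 CPM with DMSO and 130.0, 155.5 and 140.1 CPM with WFA. The values did not overlap, but the gap between WFA replicate 2 and DMSO replicate 2 was small. Its log2 fold change was -0.29 ± 0.09 (SE, edgeR adjusted p = 0.01505), and the call was lost without DMSO replicate 1 (-0.26, edgeR adjusted p = 0.0656) and without WFA replicate 1 (-0.23, edgeR adjusted p = 0.0647). The call was also lost without both libraries of replicate 1 (-0.20, edgeR adjusted p = 0.184) or of replicate 3 (-0.27, edgeR adjusted p = 0.0628). LMNB2 shares 257 exon bases with its neighbor TIMM13 on the same strand.

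LMNA (chromosome 1, 156082573 to 156140089, plus strand), the gene of lamins A and C, was higher with WFA. It had 294.5, 300.8 and 327.4 CPM with DMSO and 360.6, 369.4 and 526.2 CPM with WFA. All WFA values lay above all DMSO values, and WFA replicate 3 stood well above the other two. The log2 fold change was 0.44 ± 0.13 (SE, edgeR adjusted p = 0.00836), a rise of 36.1%, and the within-experiment values were 0.29, 0.30 and 0.68. Without WFA replicate 3 the log2 fold change was 0.25 and was still called (edgeR adjusted p = 0.0384).

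**Figure D2:**
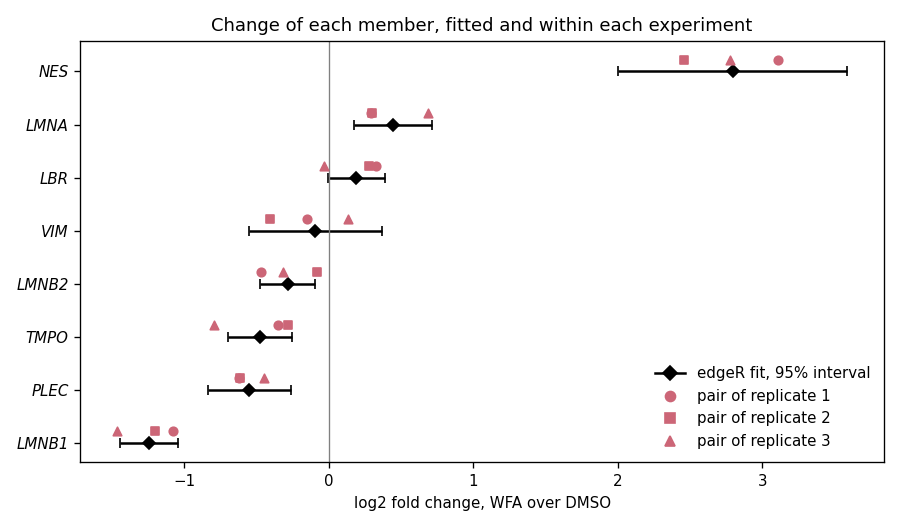
Log2 fold change of WFA over DMSO for the 8 tested genes, with black diamonds and bars for the edgeR estimate and its 95% interval and red symbols for the difference within each experiment. The 3 experiments have the same sign for NES, LMNA, LMNB2, TMPO, PLEC and LMNB1, and fall on both sides of 0 for VIM and LBR.

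TMPO (chromosome 12, 98515512 to 98550379, plus strand) had 391.5, 350.9 and 433.1 CPM with DMSO and 307.3, 288.5 and 249.5 CPM with WFA. The WFA values all lay below the DMSO values. Its level fell by 28.1%, with a log2 fold change of -0.48 ± 0.10 (SE, edgeR adjusted p = 0.00134). TMPO-AS1, which starts on the opposite strand and shares 713 exon bases with TMPO, fell as well, from 56.77, 46.04 and 55.99 CPM to 26.38, 24.08 and 27.26 CPM. Its log2 fold change was -1.03 ± 0.11 (SE, edgeR adjusted p = 2.31e-06). As for VIM, reads of the shared bases cannot be assigned to a strand, but TMPO-AS1 had more reads beside TMPO than VIM-AS1 beside VIM. TMPO-AS1 had 807, 583 and 672 reads with DMSO and 323, 299 and 293 with WFA. TMPO had 5566, 4444 and 5198 with DMSO and 3762, 3582 and 2681 with WFA. How far shared reads enter the fall of TMPO was not tested.

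LBR (chromosome 1, 225401502 to 225428925, minus strand) had 270.5, 254.3 and 297.9 CPM with DMSO and 338.8, 308.5 and 290.7 CPM with WFA. The groups overlapped through replicate 3, in which the WFA library was slightly the lower. The log2 fold change was 0.19 ± 0.09 (SE, edgeR adjusted p = 0.104), and its 95% interval ran from -0.01 to 0.39. With the replicate block LBR was called in edgeR, at 0.19 (edgeR adjusted p = 0.0306), as were 59.0% of all genes tested. That fit took each gene's variance from a trend over genes, not from the gene's own libraries. In DESeq2 with the same block LBR was not called (0.17, DESeq2 adjusted p = 0.1501). In edgeR it was also called without DMSO replicate 3 (0.25, edgeR adjusted p = 0.0496) and without both replicate 3 libraries (0.30, edgeR adjusted p = 0.0223). Within the experiments the values were 0.33, 0.28 and -0.04. EMD (chromosome X, 154379197 to 154381523, plus strand) is the remaining member of this group and was listed at 0 throughout. The cause of that was not tested.

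Ratios of a pair of members within a library do not depend on how the libraries are scaled. With DMSO the libraries held 0.754, 0.774 and 0.802 reads of LMNA for each read of LMNB1. With WFA they held 1.956, 2.193 and 3.568. The DMSO libraries were nearly equal and the WFA libraries all lay above 1. The mean log2 ratio went from -0.36 ± 0.04 to 1.31 ± 0.46, a 3.20-fold shift (exact two-sided permutation p = 0.1, adjusted p = 0.1 over 5 ratios). This p is the smallest that 3 libraries against 3 can give, and the permutation does not keep the 2 libraries of an experiment together.

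LMNB2 was also higher relative to LMNB1 with WFA. The ratios of LMNA, LMNB2 and TMPO to LMNB1 all contain the fall of LMNB1, so they are not separate results. LMNB2 and TMPO themselves fell, by less than LMNB1. There were 0.461, 0.423 and 0.428 reads of LMNB2 for each read of LMNB1 with DMSO and 0.7054, 0.9235 and 0.9502 with WFA, a 1.95-fold shift without overlap. TMPO and LMNB1 were about level with DMSO, with 1.00, 0.903 and 1.06 reads of TMPO for each read of LMNB1, and stood at 1.67, 1.71 and 1.69 with WFA. With WFA the log2 ratio of VIM to PLEC differed by 0.42 and that of VIM to LMNA by -0.57, again without overlap and in all 3 experiments. Each of these ratios had an exact two-sided permutation p = 0.1, the smallest value that this permutation can give. The ratio of EMD to LBR could not be computed.

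**Figure D3:**
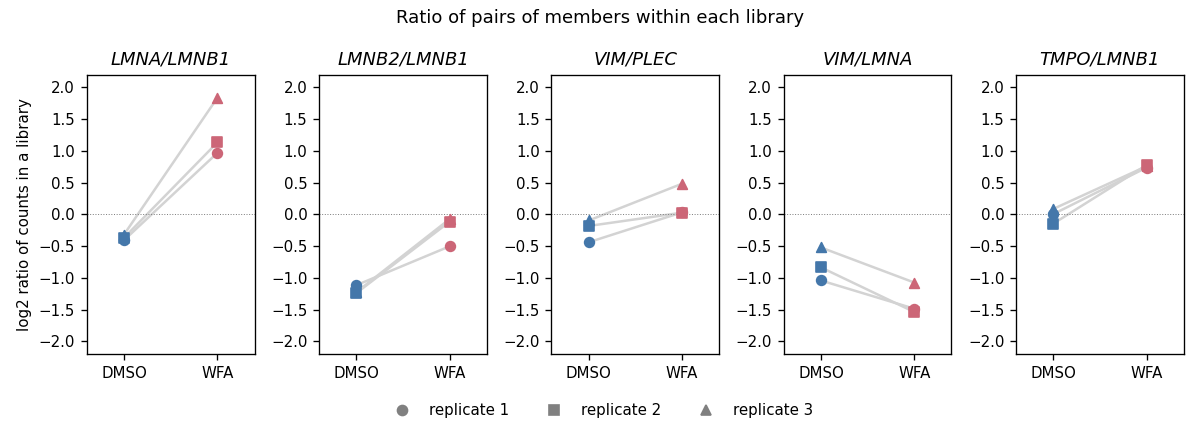
Log2 ratio of the read counts of pairs of members in each library, with grey lines joining the DMSO and WFA libraries of one experiment. All 3 lines rise for LMNA/LMNB1, LMNB2/LMNB1, VIM/PLEC and TMPO/LMNB1 and fall for VIM/LMNA, and the mean of LMNA/LMNB1 goes from -0.36 to 1.31.

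To set the levels of different genes side by side, CPM were divided by the length of the longest GENCODE transcript in kb. On this scale LMNB1 was the most abundant member with DMSO, at 114 ± 3.12 CPM per kb, followed by LMNA at 96.4 ± 5.49, TMPO at 92.4 ± 9.68, LBR at 71.9 ± 5.78 and VIM at 67.5 ± 16.4. LMNA and TMPO could not be separated in this order, nor could LBR and VIM, since their libraries overlapped. LMNB2 at 37.0 ± 1.71, PLEC at 13.75 ± 1.94 and NES at 0.0932 ± 0.0248 CPM per kb followed, each apart from the one before. With WFA the order began with LMNA at 131 ± 29.2 CPM per kb, ahead of LBR at 82.0 ± 6.39 and TMPO at 66.4 ± 6.95. VIM at 63.25 ± 26.4 overlapped with TMPO above it and with LMNB1 below it. LMNB1, at the top with DMSO, was in place 5 with WFA, at 48.0 ± 5.32 CPM per kb. With the combined length of all exons in place of the longest transcript, LMNB1 again led with DMSO, LBR overlapped with TMPO and TMPO with LMNA behind it, and with WFA the libraries of LMNA and LBR overlapped at the top and LMNB1 was in place 3, so its place with WFA depends on the length used.

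Further proteins of the inner nuclear membrane, of the LINC complex that couples the nucleus to the cytoskeleton, and of the chromatin held at the lamina included genes that rose and genes that fell. Of 22 such genes 19 were tested, and 5 rose and 6 fell, near the 25.8% and 24.7% of all genes tested. Their median log2 fold change was -0.03. NEMP1, an inner nuclear membrane protein, rose from 136 ± 3.81 to 230 ± 18.8 CPM, a log2 fold change of 0.75 ± 0.09 (SE, edgeR adjusted p = 5.21e-06). SUN1 and SYNE1 (nesprin-1), partners in the LINC complex, rose, with log2 fold changes of 0.64 and 0.89. SUN2 and SYNE3, further LINC genes of the list named after their values were seen, were not called. Their log2 fold changes were -0.03 and 0.18 (edgeR adjusted p = 0.855 and 0.427). LEMD3, a LEM domain protein like emerin, rose with 0.44. TOR1A, the torsin ATPase of the envelope, and TOR1AIP1 (LAP1), its activator, both fell, with log2 fold changes of -0.68 and -0.58 (edgeR adjusted p = 2.24e-05 and 0.000126). CBX5 and CBX3, the heterochromatin proteins HP1α and HP1γ that bind LBR, fell with -0.50 and -0.39. CBX5 had the highest level of the list, at 588 ± 69.5 CPM with DMSO and 416 ± 20.45 CPM with WFA.

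The list of enzymes that farnesylate and trim prelamins is short, and its count is not read against the 50.5% of all genes called. Of the 5 genes 4 were tested, 1 of them (ICMT) fell and the remaining 3 were not called, with a median log2 fold change of -0.04. ICMT, the methyltransferase of farnesylated proteins, went from 204 ± 21.8 to 153 ± 18.8 CPM, a log2 fold change of -0.41 ± 0.10 (SE, edgeR adjusted p = 0.00423). ZMPSTE24, the protease that matures prelamin A, was the most counted gene of the list, at 1335 ± 52.6 CPM with DMSO and 1467 ± 173 CPM with WFA, and was not called (log2 fold change 0.14, edgeR adjusted p = 0.292). With the replicate block 2 genes of this list fell, FNTA, named after its values were seen, being added with -0.21.

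Other cytoplasmic intermediate filament genes were mostly near 0. Of 20 such genes and cytolinkers 8 were tested, and the other 12 had at most 9 reads in any library. Of the tested genes 2 rose and 1 fell, where 50.5% of all genes tested were called, and the median log2 fold change was -0.04. SYNM, whose product synemin assembles into vimentin filaments, rose from 26.5 ± 2.73 to 77.0 ± 3.89 CPM. Its log2 fold change was 1.54 ± 0.10 (SE, edgeR adjusted p = 1.59e-08). MACF1, a cytolinker of actin and microtubules related to plectin, rose with a log2 fold change of 0.36 ± 0.10 (SE, edgeR adjusted p = 0.00669). Its call was lost without both libraries of replicate 1 (0.32, edgeR adjusted p = 0.0709). NEFH, the heavy neurofilament gene, fell with a log2 fold change of -0.34 ± 0.12 (SE, edgeR adjusted p = 0.0239). The call of NEFH was lost without DMSO replicate 1 (-0.33, edgeR adjusted p = 0.0641), without DMSO replicate 2 (-0.31, edgeR adjusted p = 0.0661) and without WFA replicate 3 (-0.22, edgeR adjusted p = 0.115). It was also lost without both libraries of replicate 2 (edgeR adjusted p = 0.103) or of replicate 3 (edgeR adjusted p = 0.0713).

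Genes that take the envelope apart in mitosis or close it again were called about as often as genes at large. All 23 were tested, and 5 rose and 7 fell, where 50.5% of all genes were called, with a median log2 fold change of 0.01. The mitotic kinase CDK1 and its cyclin CCNB1, which phosphorylate lamins, fell with log2 fold changes of -0.60 and -0.78 (edgeR adjusted p = 5.39e-05 and 0.0001825), and VRK1, the kinase that releases BAF from LEM domain proteins, fell with -0.59. PRKCD, a protein kinase C, fell from 297 ± 23.0 to 161 ± 11.04 CPM, a log2 fold change of -0.88. ANKLE2, which promotes the dephosphorylation of BAF when the envelope re-forms, rose from 109 ± 4.21 to 244 ± 21.3 CPM, a log2 fold change of 1.16 ± 0.09 (SE, edgeR adjusted p = 8.52e-08). LPIN1, a phosphatidate phosphatase, rose with 1.23, VPS4A, the ATPase of the ESCRT machinery that seals the envelope, with 0.44, and PRKCB with 0.42.

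Of 13 kinases that phosphorylate vimentin and proteases that cut vimentin or lamins, 3 rose and 3 fell, near the 50.5% of all genes called, with a median log2 fold change of 0.02. PRKACB, a catalytic subunit of protein kinase A, rose from 90.1 ± 11.2 to 358 ± 59.0 CPM. This was a log2 fold change of 1.99 ± 0.12 (SE, edgeR adjusted p = 8.86e-09). CASP6, the caspase that cuts lamin A, rose with 0.53 ± 0.18 (SE, edgeR adjusted p = 0.0236). PAK2, PAK1 and AURKB, kinases of vimentin, fell with log2 fold changes of -0.35, -0.31 and -0.47. Without both libraries of replicate 2 PAK1 lost its call (-0.30, edgeR adjusted p = 0.055). AURKB lost its call without both of replicate 1 (edgeR adjusted p = 0.110) or of replicate 3 (edgeR adjusted p = 0.127). Without both of replicate 3 CASP6 lost its call too (0.27, edgeR adjusted p = 0.284). The calpain gene CAPN2 had the highest level, at 469 ± 24.9 CPM with DMSO and 408 ± 12.5 CPM with WFA, and was not called (edgeR adjusted p = 0.0623), though it was with the replicate block (edgeR adjusted p = 0.0224), with RLE scaling (0.0467), with total counts (0.00933), without the 100 most counted genes (0.0491) and in DESeq2 (DESeq2 adjusted p = 0.0205). CASP6 lost its call without DMSO replicate 3 (0.38, edgeR adjusted p = 0.103), without WFA replicate 1 (0.53, edgeR adjusted p = 0.0553) and without WFA replicate 3 (0.43, edgeR adjusted p = 0.0984), and AURKB without DMSO replicate 3 (-0.39, edgeR adjusted p = 0.0616).

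**Figure D4:**
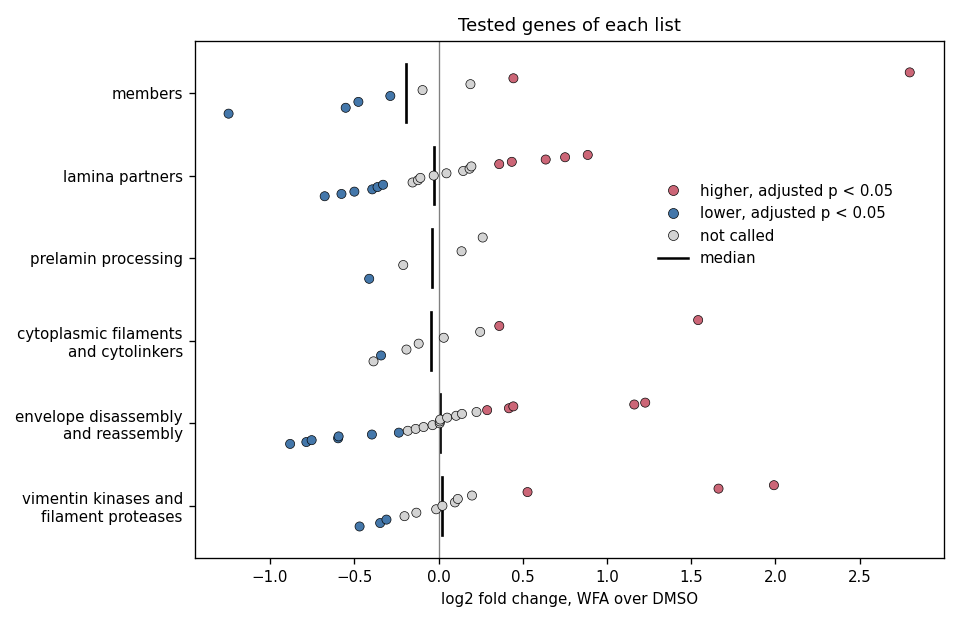
Log2 fold change of WFA over DMSO for each tested gene of the family and of the 5 related lists, colored by the edgeR call, with a black bar at the median of each list. The medians of the 5 related lists lie between -0.04 and 0.02, with called genes on both sides of 0 except among the prelamin enzymes.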

How the data were processed

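RNA of 6 THP1 samples was sequenced after 6 h with WFA or DMSO. The authors deposited whole-number read counts per gene, not normalized. The submitters' processing notes name bcl2fastq 2.19, Trimmomatic, Bowtie2, Picard, featureCounts and DESeq2 with build hg38. How strand and multiply mapped reads were treated is not given in the sources used here. The authors also deposited scaled counts (a score per library), mean signal, and their own comparison as fold ratio, log2 fold change and p-values with model scores, none of which was used.
Counts were compared with edgeR 4.0.16 in R 4.3.3, by the quasi-likelihood test with TMM scaling and no block, after filterByExpr at min.count 10, with Benjamini-Hochberg adjustment. Ratios were tested by exact permutation (scipy 1.17.1). The alternatives used DESeq2 1.42.0 and limma 3.58.1, and the edgeR fits with and without the block, limma-voom and DESeq2 were tested on simulated data. The simulated data held no differences between experiments, so they cannot show how well the block handles them. Within each group the libraries differed beyond sampling noise (chi-square per gene 5.92 to 10.9). Replicate numbers come from the labels, where same-numbered samples share an experiment code. Their deviations from the group means correlated at 0.23 to 0.36 over genes, against -0.28 to 0.01 for different numbers. Positions and lengths are from GENCODE 29 (GRCh38), and start sequences from RefSeq.
The members and the 5 gene lists were chosen with earlier results of these data known. Named genes were the 9 members and, from each list, up to 4 called genes with the smallest p in each direction and the gene with the highest mean CPM. FNTA, SUN2 and SYNE3 were added after their values were seen. The antisense transcripts of members and the cell type markers were fixed as lists of their own. Some genes of these lists are counted with their list but not reported here by name.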

Additional observations from a re-analysis of the deposited data

How the results depend on the processing

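The 8 tested members were refitted under other scalings, filters and tools, without each library, and without both libraries of a replicate number, the last chosen after seeing the data. The refits without libraries had no block, and those without 1 library left its experiment in 1 group only. Some shifts of the list medians below came with a change in which genes of a list were left. The cause of the other shifts was not tested. Leaving out single libraries moved VIM between -0.49 and 0.11 on the log2 scale (0.07 without WFA replicate 1 and 0.07 without WFA replicate 2), LMNB2 between -0.36 and -0.23 and LBR between 0.13 and 0.25. Without both libraries of replicate 2 VIM was at 0.017, of replicate 3 VIM at -0.28, LMNB2 at -0.27 and LBR at 0.30, and of replicate 1 LMNB2 at -0.20. LMNB2 lost its call without replicate 3 (edgeR adjusted p = 0.0628) and without replicate 1 (edgeR adjusted p = 0.184). LBR was called without replicate 3 (edgeR adjusted p = 0.0223). The replicate block in edgeR called LBR (0.19) and CAPN2 and made 2 prelamin genes lower, and changed no other call among members and named genes. The variances of that fit came from a trend over genes alone, so these calls do not rest on the spread of each gene. In DESeq2 with the block, chosen after seeing the data, LBR was not called (0.17, adjusted p = 0.1501) and CASP6 lost its call (0.52, adjusted p = 0.0718). NES was not tested under a stricter filter on low counts, which left 1 member higher.

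RLE scaling, total counts, DESeq2 and DESeq2 with the block also gave 2 prelamin genes lower, and leaving out single libraries gave 1 to 2 lower and 0 to 1 higher. Scaling to total counts gave 2763 genes higher and 3875 lower, against 3311 and 3178, and moved the medians to -0.11 (lamina partners), -0.13 (cytoplasmic filaments), -0.079 (envelope) and -0.060 (filament modifiers). It lowered the log2 fold change of each tested member by a similar amount, for instance VIM from -0.09 to -0.18 and LMNB1 from -1.25 to -1.33. The lamina median ran from -0.11 to 0.094 without single libraries and was 0.073 without both of replicate 1, and the cytoplasmic median ran from -0.085 to 0.011, with 0 to 1 genes lower, and was 0.045 under the stricter filter. That filter left out the genes of the cytoplasmic list with the fewest reads. Without both libraries of replicate 1 the cytoplasmic list had 1 gene higher, and without those of replicate 2 or 3 it had 0 lower. The envelope median was -0.058 without both of replicate 2, and the prelamin median -0.21 without the 100 most counted genes. ZMPSTE24 was among these 100 genes, which left FNTA as the middle gene of the prelamin list. With all exons as length, CPM per kb with DMSO was 108.9 for LMNB1, 52.16 for LBR, 45.6 for TMPO, 44.03 for LMNA, 34.88 for VIM and 31.85 for LMNB2. With 3 libraries a group, small changes such as that of LBR lie at the limit of what these data resolve, and the few reads of NES limit its fold change.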

Other observations

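The monocytic markers used to check the identity of the cells included genes that rose and genes that fell. Of the 8, 1 rose and 4 fell with WFA in edgeR's test, where 25.8% of all genes tested were called higher and 24.7% lower. Nothing about the markers as a group is read from this count. CD14, the co-receptor for lipopolysaccharide, had 6.19, 3.633 and 7.332 CPM with DMSO and 2.124, 2.98 and 2.233 CPM with WFA, which on the log2 scale was -1.22 ± 0.27 (SE, edgeR adjusted p = 0.00165). CD33 fell with -0.85 ± 0.10 (SE, edgeR adjusted p = 6.99e-06). CD68, a lysosomal glycoprotein of macrophages, rose with 0.37 (edgeR adjusted p = 0.00528). ITGAM, LYZ and FCGR1A were not called, with log2 fold changes of 0.0048, -0.05 and -0.05.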
